A study of Homo sapiens with 9 samples.

Results

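The genes described here encode the factors that start, elongate and end protein synthesis on cytosolic ribosomes. They were taken by symbol from the protein-coding genes of the expression table: all EIF1 to EIF6 symbols except the eIF2 kinases EIF2AK1 to EIF2AK4, the elongation factors EEF1A1, EEF1A2, EEF1B2, EEF1D, EEF1G and EEF2, the eEF2 kinase EEF2K, and the release factors ETF1, GSPT1 and GSPT2. This gave 62 genes of 57766 in the table. The rule reads gene symbols only. The cells were HEK293 Freestyle, a suspension form of an established line from human embryonic kidney. They were kept for 36 h in untreated Freestyle medium (full), in Zn(II)-depleted Freestyle medium (depleted) or in depleted medium repleted with Zn(II) (repleted), and their polyadenylated RNA was sequenced. Each group held 3 libraries, given as biological triplicates. The amount of Zn(II) added back is not given in the sources used here, and the labels also name a wash with EDTA without making clear what was washed.

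Initiation begins when eIF2 and GTP bring the initiator tRNA to the small ribosomal subunit, helped by eIF1, eIF1A, eIF3 and eIF5. The cap-binding complex eIF4F recruits the mRNA, and the assembled complex scans for a start codon, where eIF5 stimulates GTP hydrolysis by eIF2. The exchange factor eIF2B recharges eIF2 with GTP, a step that is blocked when stress kinases phosphorylate the alpha subunit of eIF2. During elongation eEF1A delivers aminoacyl-tRNAs and eEF2 moves the ribosome along, and the release factors eRF1 and eRF3 end the chain. Among these proteins the beta subunit of eIF2 (EIF2S2) and eIF5 (EIF5) are known to hold a zinc ion in related domains built on cysteine pairs.

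The coding sequences were searched for that arrangement, since it is the feature that ties these genes to zinc. The pattern was a cysteine codon (TGC or TGT), 2 codons, a cysteine codon, then 8 to 30 codons, and the same pair again, read in frame on the coding strand of the longest GENCODE coding sequence of each gene. EIF2S2 and EIF5 were the 2 genes with the pattern among 61 of the 62 that could be searched. Of 19523 coding genes searched, 9.44% held it. The stretch of EIF5 is shown with its 4 cysteine codons in capitals. It covers codons 99 to 125 and joins exons 5 and 6 of the 12 exons of the transcript, which span an intron at chr14:103336817-103337163 (GRCh38, plus strand).
EIF5: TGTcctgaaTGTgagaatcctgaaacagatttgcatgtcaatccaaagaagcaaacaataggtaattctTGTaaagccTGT

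Expression was given per gene as RPKM, a read level scaled for the length of the gene and the size of the library, and the differences below are on the log2(RPKM + 1) scale. The depth estimated from the steps between low values lay between 16800000 and 23500000 reads per library. Vimentin (VIM, 573 to 675 RPKM), the keratins KRT8 and KRT18 and N-cadherin (CDH2), which HEK293 cells are known to express, were present in all 9 libraries. Their levels moved with depletion in both directions. VIM lay at 653 to 675 RPKM in depleted and 573 to 589 in the other libraries, and CDH2 at 45.0 to 49.5 and 36.5 to 38.9. KRT8 lay at 90.2 to 90.7 RPKM in depleted and 119 to 138 in the other libraries, and PAX2, a kidney gene, at 0.400 to 0.810 and 2.81 to 3.61. The list of HEK293 markers summed to 851 to 876 RPKM in depleted and 811 to 842 in the others. Of 8 markers of other lineages, HBB and INS were at 0 and ALB, PTPRC and MYH7 did not exceed 0.240 RPKM. The 8 summed to 18.4 to 22.2 RPKM in full, 8.21 to 11.9 in depleted and 17.8 to 21.1 in repleted medium, mostly through the fibroblast gene COL1A1 (7.18 to 10.6 in depleted, 16 to 19.7 in the others). The part of these shifts in the results below was not tested. In such bulk RNA, fewer cells of a type and less RNA per cell cannot be told apart.

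Of the 62 genes, 59 had at least 1 RPKM in at least 3 libraries and were tested. EIF1AY, EIF4E1B and EIF4EBP3 did not pass this filter and stayed at or below 0.740 RPKM. In depleted against full medium, 25 of the 59 rose and 23 fell (limma with Benjamini-Hochberg adjustment over all 15774 genes tested, threshold 0.05), and 11 did not pass. The 25 include EIF2S3L, which reached 1 RPKM in depleted libraries only. Of all genes tested 60.9% passed, 29.8% higher and 31.2% lower. Where the mean was 10 RPKM or more, 71.3% of genes passed, against 44 of the 53 translation factor genes at that level. In depleted against repleted medium 23 rose, EIF2S3L again among them, and 22 fell, beside 60.7% of all genes (29.5% higher, 31.2% lower). At 10 RPKM or more 71.2% passed that comparison, as did 41 of the 53 translation factor genes. The depleted comparisons share the depleted libraries and are given side by side.

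The 62 genes held 2.62% ± 0.0361 (SD, n = 3) of the RPKM summed over all genes in full, 2.70% ± 0.0566 in depleted and 2.6% ± 0.0400 in repleted medium, and the libraries of the 3 groups overlapped in this share. Without EEF1A1 the share did not overlap, at 1.94% to 1.99% in depleted and 1.90% to 1.92% in the other libraries, and the plain RPKM sum of the 62 genes was likewise higher in every depleted library (16724 to 17434) than in the others (16047 to 16651). The median log2 difference of depleted against full was 0.03 over the 59 genes and 0.00 over all genes tested, and the median size of the difference was 0.31 and 0.36. GSPT2, EIF2B3 and EIF4A2 fell by 1 or more on this scale, and EIF5 rose by 0.91. The plot of log2 differences shows each role separately.

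**Figure D1:**
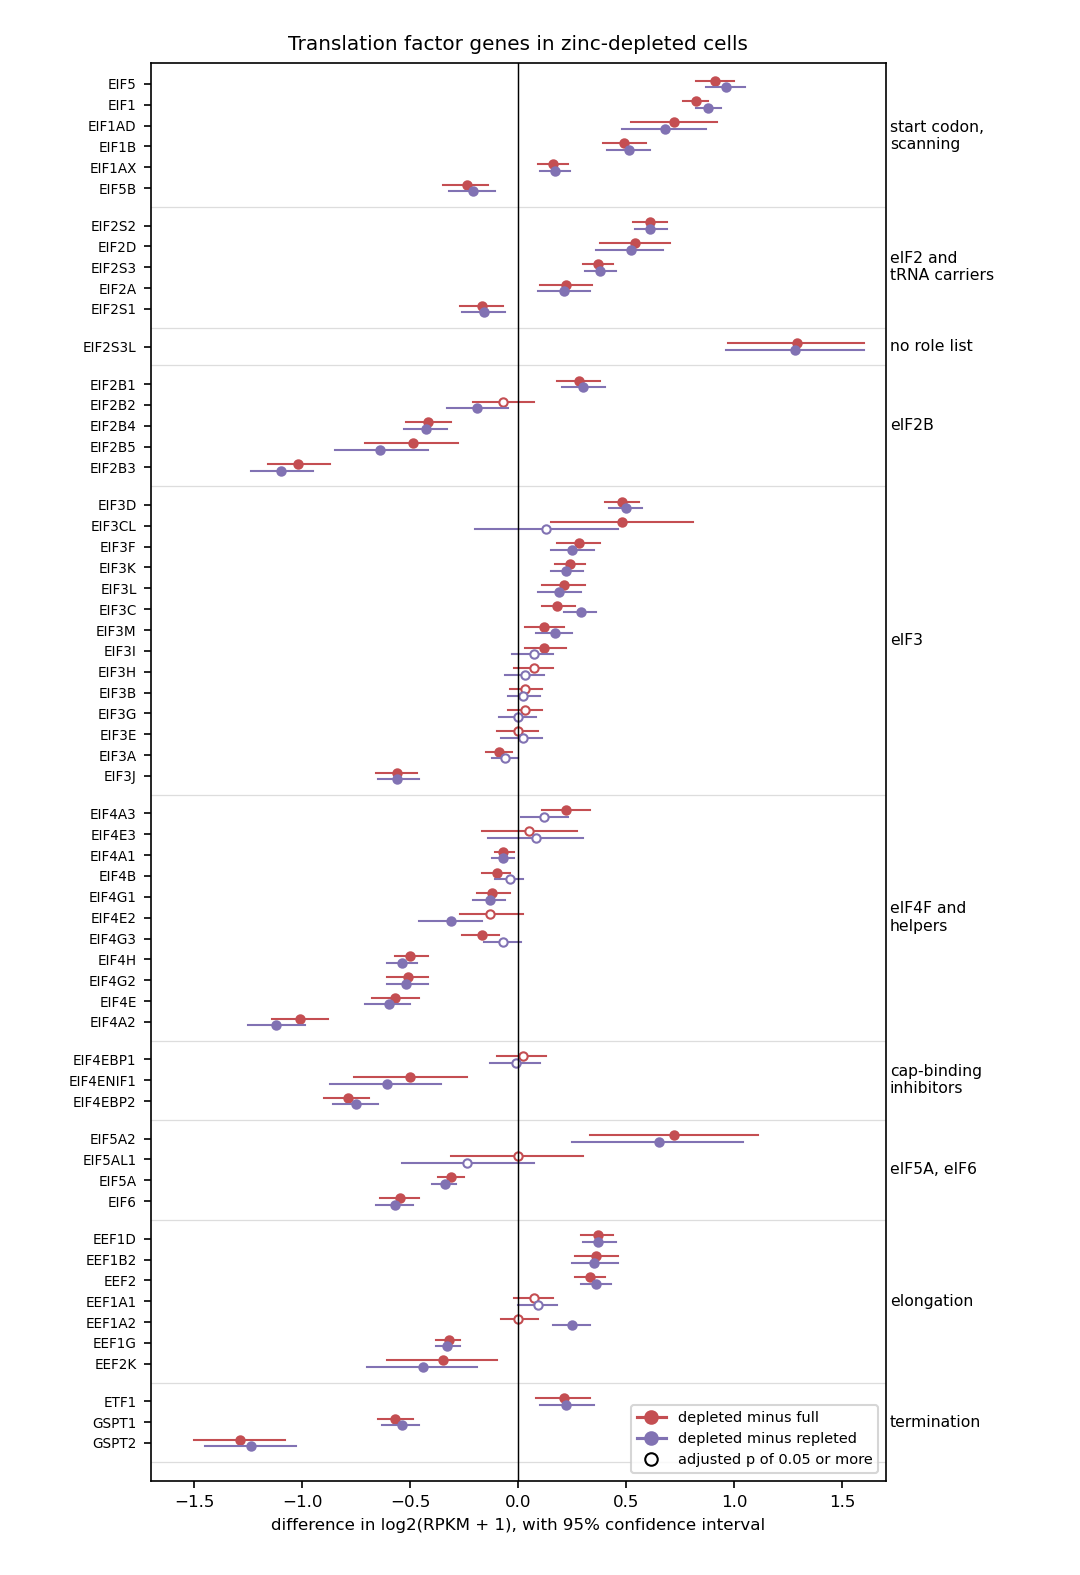
Difference in log2(RPKM + 1) of each tested gene, depleted minus full (red) and depleted minus repleted (violet), with 95% confidence intervals from limma over 3 libraries a group. Filled points passed an adjusted p of 0.05. EIF2S3L, shown under no role list, passed the expression filter only through depleted libraries, so its points and intervals are a description and no test. EIF5 and EIF1 lie at the high end of the start codon group, and EIF4A2, EIF2B3 and GSPT2 at the low end of theirs.

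Genes listed under start codon and scanning mostly rose. Of the 6 tested genes of this list 5 rose and 1, EIF5B, fell in depleted against full medium. Their median log2 difference was 0.60. Of all genes tested 29.8% rose and 31.2% fell, and 71.3% passed where the mean was 10 RPKM or more. The list also holds EIF1AD, which shares a domain with eIF1A, and EIF5B, which acts after the start codon is found. The level of EIF5, the GTPase activator of eIF2 and one of the zinc-holding factors, reached 334, 320.1 and 335 RPKM in depleted medium, against 185, 171 and 168 in full and 167, 172 and 169 in repleted medium. All 3 depleted libraries lay far above the other 6. The gain over full was 1.89-fold (log2 0.91, SE 0.04, limma adjusted p = 8.65e-08) and over repleted medium 1.95-fold (log2 0.96, limma adjusted p = 6.47e-08). EIF1, which keeps the scanning complex from stopping at poor start codons, had 469, 473 and 483 RPKM in full, 838, 855 and 817 in depleted and 462, 459.6 and 443 in repleted medium. Its rise was 1.76-fold over full (log2 0.82, SE 0.03, limma adjusted p = 1.89e-08) and 1.84-fold over repleted medium (log2 0.88). EIF1 and EIF5 thus kept a similar proportion, with an RPKM ratio of 2.72 ± 0.176 in full, 2.54 ± 0.119 in depleted and 2.69 ± 0.0755 in repleted medium.

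The paralogue EIF1B rose less, from 62.4 RPKM in full medium to 87.9 with depletion (log2 0.49). EIF1AX, the gene of eIF1A, which acts with eIF1 in scanning, rose slightly from 232 to 259 RPKM (log2 0.16, limma adjusted p = 0.00178). EIF1AD, named for a domain shared with eIF1A, had 19.8, 16.8 and 18.2 RPKM in full, 29.3, 31.4 and 31.5 in depleted and 16.6, 18.9 and 21.2 in repleted medium. The depleted libraries were again the highest, without overlap (log2 0.72, SE 0.09, limma adjusted p = 7.86e-05). EIF5B, the GTPase that joins the large subunit after the start codon is found, went the other way, from 67.7 to 57.0 RPKM (log2 -0.24, limma adjusted p = 0.0012).

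Within eIF2 the subunits moved unequally. EIF2S2, the zinc-holding beta subunit, had 64.5, 67.7 and 65.1 RPKM in full, 99.0, 103 and 101 in depleted and 65.2, 64.6 and 67.1 in repleted medium. Full and repleted libraries covered the same range, and the depleted ones stood clear of it. The rise was 1.53-fold over full (log2 0.61, SE 0.03, limma adjusted p = 4.04e-07) and 1.54-fold over repleted medium (log2 0.61, limma adjusted p = 4.00e-07). The gamma subunit gene EIF2S3, which binds GTP and the tRNA, rose from 218 to 282 RPKM (log2 0.37, limma adjusted p = 7.96e-06). EIF2S1, the alpha subunit that stress kinases phosphorylate, fell from 155 to 137 RPKM (log2 -0.17, limma adjusted p = 0.00765), a call that median centring of the libraries ended (limma adjusted p = 0.0507). The RPKM ratio of EIF2S1 to EIF2S2 went from 2.36 ± 0.094 in full to 1.36 ± 0.0611 in depleted and was 2.33 ± 0.069 in repleted medium. Pseudogenes of EIF2S2, 4 in the table, summed to 16.6 ± 1.67 RPKM in full, 29.6 ± 2.67 in depleted and 18.4 ± 1.89 in repleted medium, and whether reads were shared with them was not tested.

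EIF2D and EIF2A, which can place an initiator tRNA without eIF2, rose as well. EIF2D went from 45.6 to 66.5 RPKM (log2 0.54, limma adjusted p = 1.09e-04), and EIF2A, a protein distinct from eIF2, from 79.7 to 93.1 RPKM (log2 0.22, limma adjusted p = 0.00501). EIF2S3L, a gene closely related to EIF2S3, was weakly expressed, with 0.25, 0.160 and 0.270 RPKM in full, 1.95, 1.93 and 2.09 in depleted and 0.290, 0.30 and 0.110 in repleted medium. The depleted libraries stood above the 6 others. EIF2S3L passed the expression filter only through those libraries, so its difference is given as a description with no p, as log2 1.29 over full with the pseudocount of 1 and 2.69 with a pseudocount of 0.1. Because the genes are alike in sequence, how reads were divided between them is uncertain.

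The subunits of eIF2B did not move together. Of 5 tested genes 1 rose and 3 fell in depleted against full medium, with a median log2 difference of -0.42. Among all genes tested 29.8% rose and 31.2% fell, and 71.3% passed at a mean of 10 RPKM or more. EIF2B3, the gamma subunit, which forms the catalytic part with epsilon, had 42.4, 41.4 and 39.2 RPKM in full, 18.4, 19.7 and 21.3 in depleted and 45.8, 40.8 and 43.8 in repleted medium. Every depleted library was below 22 RPKM and every other library above 39 RPKM, a 2.07-fold fall from full (log2 -1.02, SE 0.06, limma adjusted p = 9.22e-07) and 2.20-fold from repleted medium (log2 -1.10). The catalytic epsilon subunit gene EIF2B5 had 32.3, 28.1 and 26.5 RPKM in full, 18.2, 21.5 and 21.2 in depleted and 28.8, 32.9 and 34.7 in repleted medium. Its libraries did not overlap either (log2 -0.49 from full, limma adjusted p = 0.00152, and -0.64 from repleted medium). EIF2B4, the delta subunit, fell from 28.7 to 21.3 RPKM (log2 -0.42).

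EIF2B1, the alpha subunit, which helps eIF2B sense phosphorylated eIF2, rose instead, from 66.8 to 81.5 RPKM (log2 0.28, limma adjusted p = 3.57e-04). EIF2B2, the beta subunit, had 28.8 RPKM in full and 27.3 in depleted medium (log2 -0.07, 95% interval -0.21 to 0.07). It passed against repleted medium (31.3 RPKM, log2 -0.19, limma adjusted p = 0.0265), but not without depleted replicate 1 (0.0955), repleted replicate 1 (0.0921) or repleted replicate 2 (0.0646). The RPKM ratio of EIF2B1 to EIF2B3 went from 1.63 ± 0.116 in full to 4.13 ± 0.204 in depleted and was 1.53 ± 0.124 in repleted medium. EIF2B1 had the highest level of the complex in every group.

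**Figure D2:**
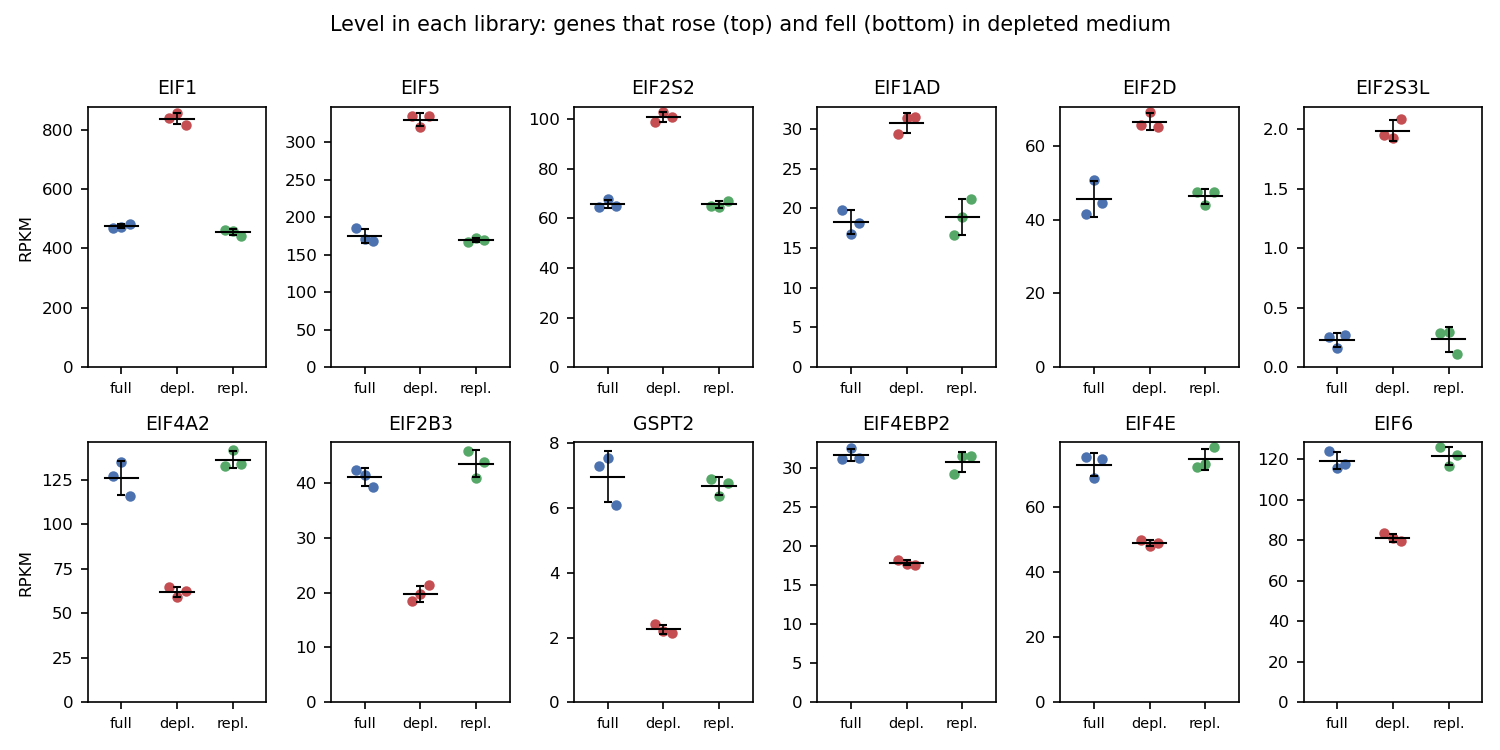
RPKM in each library for genes that rose (top row) and genes that fell (bottom row) in depleted medium, with group mean and SD (n = 3) and axes from 0. In every panel the 3 depleted libraries stand apart from the 6 others, and full and repleted libraries lie together, as for EIF2S2 with depleted libraries from 99.0 to 103 RPKM.

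The scaffold eIF3, which holds the small subunit and links it to eIF4F, showed mostly small differences. Of 14 tested subunit genes 8 rose, 2 fell and 4 did not pass in depleted against full medium, with a median log2 difference of 0.12. Over all genes tested 29.8% rose and 31.2% fell, and at a mean of 10 RPKM or more 71.3% passed. EIF3D, a subunit that can itself bind the cap, rose most clearly, from 127 to 177 RPKM (log2 0.48, limma adjusted p = 2.02e-06). EIF3F, EIF3K, EIF3L and EIF3C rose with log2 values of 0.28, 0.24, 0.21 and 0.18. The largest fall was in EIF3J, a loosely bound subunit, from 71.8 to 48.2 RPKM (log2 -0.56, limma adjusted p = 2.89e-06). Its level relative to EIF3A, the core subunit, changed from an EIF3A to EIF3J RPKM ratio of 1.62 ± 0.0766 in full to 2.26 ± 0.0358 in depleted medium. EIF3B, EIF3E, EIF3G and EIF3H had log2 differences between -0.00 and 0.07 that did not pass, although EIF3H passed without depleted replicate 1 (limma adjusted p = 0.0448).

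Several of the small eIF3 calls rested on particular libraries. EIF3A (log2 -0.09) did not pass without depleted replicate 1 (limma adjusted p = 0.0559) or after median centring (0.27). EIF3M (log2 0.12) was lost without full replicate 2 (0.0821) or depleted replicate 2 (0.0778). EIF3I (log2 0.12) was lost without full replicate 2 (0.0829), full replicate 3 (0.0716), depleted replicate 1 (0.0528) or depleted replicate 2 (0.101). EIF3CL (log2 0.48) was lost without full replicate 1 (0.0504) or depleted replicate 1 (0.0657), and it had 18.3 RPKM in full, 26.0 in depleted and 23.8 in repleted medium. It is a near-identical copy of EIF3C (336 RPKM in full, 382 in depleted medium), so the division of reads between them is uncertain. Against repleted medium 6 subunits rose and EIF3J alone fell, beside 29.5% higher and 31.2% lower among all genes tested.

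The cap-binding group mostly fell. Of 11 tested genes 1 rose and 8 fell in depleted against full medium (median log2 -0.13), beside 29.8% and 31.2% of all genes tested. Against repleted medium none rose and 7 fell, beside 29.5% and 31.2% of all genes tested. Among the 8 that fell against full medium, EIF4A1, EIF4B and EIF4G1 did not pass after median centring. EIF4A2, a paralogue of the RNA helicase that unwinds mRNA at the cap, had 127, 135 and 116 RPKM in full, 64.9, 59.2 and 62.4 in depleted and 133, 142 and 134 in repleted medium. The depleted libraries were the lowest by a wide margin (2.03-fold below full, log2 -1.01, SE 0.06, limma adjusted p = 5.06e-07). Against repleted medium EIF4A2 was 2.19-fold lower (log2 -1.12, limma adjusted p = 2.64e-07). The main helicase gene EIF4A1 had 839 RPKM in full and 802 in depleted medium, and its small fall (log2 -0.07, limma adjusted p = 0.0221) was lost after median centring (0.544) and without any of 4 libraries: full replicates 1 (0.072) and 2 (0.0898) and depleted replicates 1 (0.0616) and 2 (0.0521).

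EIF4E, which binds the cap, had 75.2, 68.7 and 74.7 RPKM in full, 49.7, 47.8 and 48.7 in depleted and 72.1, 73.2 and 78.2 in repleted medium. The depleted libraries lay below all others, and the fall from full was 1.5-fold (log2 -0.57, SE 0.05, limma adjusted p = 5.42e-06). EIF4H, a helicase cofactor, fell from 209.8 to 149 RPKM (log2 -0.50, limma adjusted p = 1.0e-06). EIF4G2, a relative of the scaffold eIF4G that lacks its cap-binding partner site, fell from 394 to 275 RPKM (log2 -0.51, limma adjusted p = 5.86e-06). The scaffold genes EIF4G1 and EIF4G3 fell by 0.12 and 0.17 on the log2 scale, and EIF4B, another helicase cofactor, fell by 0.10. The call of EIF4G1 (limma adjusted p = 0.0126) ended without full replicate 2 (0.0503), after median centring (0.0746) and after quantile normalization (0.107), and that of EIF4B (0.0122) after median centring (0.174). EIF4A3, a helicase of the exon junction complex rather than of eIF4F, rose (log2 0.22). EIF4E2 and EIF4E3 had log2 differences of -0.13 and 0.05 that did not pass against full medium. EIF4E2 passed against repleted medium (log2 -0.31, limma adjusted p = 0.0021).

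Genes of proteins that hold or carry eIF4E, labelled cap-binding inhibitors in the plot of log2 differences, were lower or level. EIF4EBP2, a repressor that holds eIF4E until mTOR phosphorylates it, had 31.1, 32.5 and 31.2 RPKM in full, 18.2, 17.7 and 17.6 in depleted and 29.2, 31.5 and 31.5 in repleted medium. No depleted library came near the others (log2 -0.79, SE 0.05, limma adjusted p = 5.53e-07). EIF4ENIF1, which carries eIF4E into the nucleus, had 14.4, 17.5 and 19.0 RPKM in full, 9.99, 13.3 and 11.8 in depleted and 19.3, 17.9 and 17.8 in repleted medium, a fall with no overlap (log2 -0.50, limma adjusted p = 0.00398). EIF4EBP1, known as a target of ATF4, had 45.8, 46.4 and 49.7 RPKM in full, 46.4, 46.7 and 50.6 in depleted and 50, 48.8 and 46.1 in repleted medium. The libraries of all groups overlapped, with a log2 difference of 0.02 from full medium (95% interval -0.10 to 0.13, limma adjusted p = 0.777). With EIF4E lower, the RPKM ratio of EIF4E to EIF4EBP1 went from 1.54 ± 0.0867 in full to 1.02 ± 0.0543 in depleted and was 1.55 ± 0.131 in repleted medium.

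Genes of later steps were divided too. EIF5A, a hypusine-carrying factor that helps ribosomes through difficult peptide bonds, fell from 981 to 791 RPKM (log2 -0.31, limma adjusted p = 5.86e-06). Its paralogue EIF5A2 had 7.24, 6.65 and 4.52 RPKM in full, 10.4, 9.40 and 12.1 in depleted and 5.08, 6.68 and 7.69 in repleted medium. This rise was without overlap but on scattered low values (log2 0.72, SE 0.17, limma adjusted p = 0.00551). EIF5AL1, a copy of EIF5A, overlapped between full and depleted medium (log2 -0.00, 95% interval -0.31 to 0.30), and reads of these copies may be divided unevenly. EIF6, which keeps free large subunits from joining small ones, fell from 119.5 to 81.4 RPKM (log2 -0.55, limma adjusted p = 1.93e-06).

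Among the 7 elongation genes 3 rose, 2 fell and 2 did not pass in depleted against full medium. Beside them, 29.8% of all genes tested rose and 31.2% fell, and 71.3% passed at a mean of 10 RPKM or more. EEF2, the translocase, had 1167, 1162 and 1209 RPKM in full, 1422, 1505 and 1513 in depleted and 1187, 1128 and 1154 in repleted medium, a gain of 1.25-fold over full without overlap (log2 0.33, limma adjusted p = 1.34e-05). EEF2K, the kinase that inactivates eEF2, had 7.06 RPKM in full and 5.34 in depleted medium (log2 -0.35, limma adjusted p = 0.0213). That call ended without full replicate 2 (0.0757), full replicate 3 (0.0604) or depleted replicate 2 (0.0734) and after quantile normalization (0.0928). The 3 subunits that recharge eEF1A with GTP did not move together. EEF1B2 rose from 496 to 636 RPKM (log2 0.36) and EEF1D from 356 to 460.0 (log2 0.37), whereas EEF1G had 1515, 1498 and 1474 RPKM in full, 1176, 1215 and 1191 in depleted and 1522, 1453 and 1520.1 in repleted medium (log2 -0.32, limma adjusted p = 2.94e-06). The RPKM ratio of EEF1B2 to EEF1G was 0.332 ± 0.00887 in full, 0.532 ± 0.0163 in depleted and 0.332 ± 0.0191 in repleted medium.

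EEF1A1, the most abundant of the 62 genes, had 4621, 4388 and 4277 RPKM in full, 4423, 4767 and 4740.2 in depleted and 4243, 4305 and 4559.8 in repleted medium. These ranges overlapped, and the difference from full did not pass (log2 0.07, 95% interval -0.02 to 0.16, limma adjusted p = 0.168). It passed as higher without depleted replicate 1 (0.0479) and as lower after quantile normalization (log2 -0.18, limma adjusted p = 0.046). Pseudogenes of EEF1A1, 38 in the table, summed to 1480.3 ± 16.3 RPKM in full, 1328 ± 56.7 in depleted and 1455 ± 60.8 in repleted medium, so reads of EEF1A1 may be counted among them. EEF1A2, its tissue-restricted paralogue, did not differ detectably from full (88.0 and 88.2 RPKM) but was above repleted medium (74.2 RPKM, log2 0.25, limma adjusted p = 3.67e-04).

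Release factor genes showed the strongest fall. ETF1, the gene of eRF1, which reads stop codons, rose from 126 to 146 RPKM (log2 0.21, limma adjusted p = 0.00843). Its GTPase partner eRF3 is encoded by GSPT1 and GSPT2, and both fell. GSPT1 had 113, 109 and 111 RPKM in full, 72.2, 75.2 and 75.8 in depleted and 107, 106 and 114 in repleted medium (log2 -0.57, SE 0.04, limma adjusted p = 1.15e-06). GSPT2 had 7.28, 7.52 and 6.07 RPKM in full, 2.42, 2.19 and 2.14 in depleted and 6.88, 6.36 and 6.76 in repleted medium. The depleted libraries were below 2.5 RPKM and all others above 6 RPKM, 3.09-fold below full on mean RPKM (log2 -1.29, SE 0.09, limma adjusted p = 2.17e-06).

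The balance between related genes was compared as the log2 ratio of RPKM + 1 in each library, for 11 pairs and 33 comparisons. With 3 libraries a group a two-sided exact permutation test cannot give a p below 0.1, which became 0.174 after Benjamini-Hochberg adjustment, so no pair could pass. The ratio of EIF4A1 to EIF4A2 was 2.72 ± 0.08 in full, 3.67 ± 0.07 in depleted and 2.62 ± 0.04 in repleted medium (SD, n = 3), a difference of 0.94 between depleted and full. For EIF4EBP1 over EIF4EBP2 the difference was 0.81, for GSPT1 over GSPT2 0.72 and for EIF1 over EIF1B 0.33. EIF5A over EIF5A2 went the other way, by -1.03. In 9 of 11 pairs the depleted and full libraries did not overlap, and in 8 of 11 the depleted and repleted libraries did not. Repleted and full libraries did not overlap in 2 of 11, EIF4G1 over EIF4G3 and EEF1A1 over EEF1A2. The share over other gene pairs was not computed, and 60.9% of all single genes passed in depleted against full medium.

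**Figure D3:**
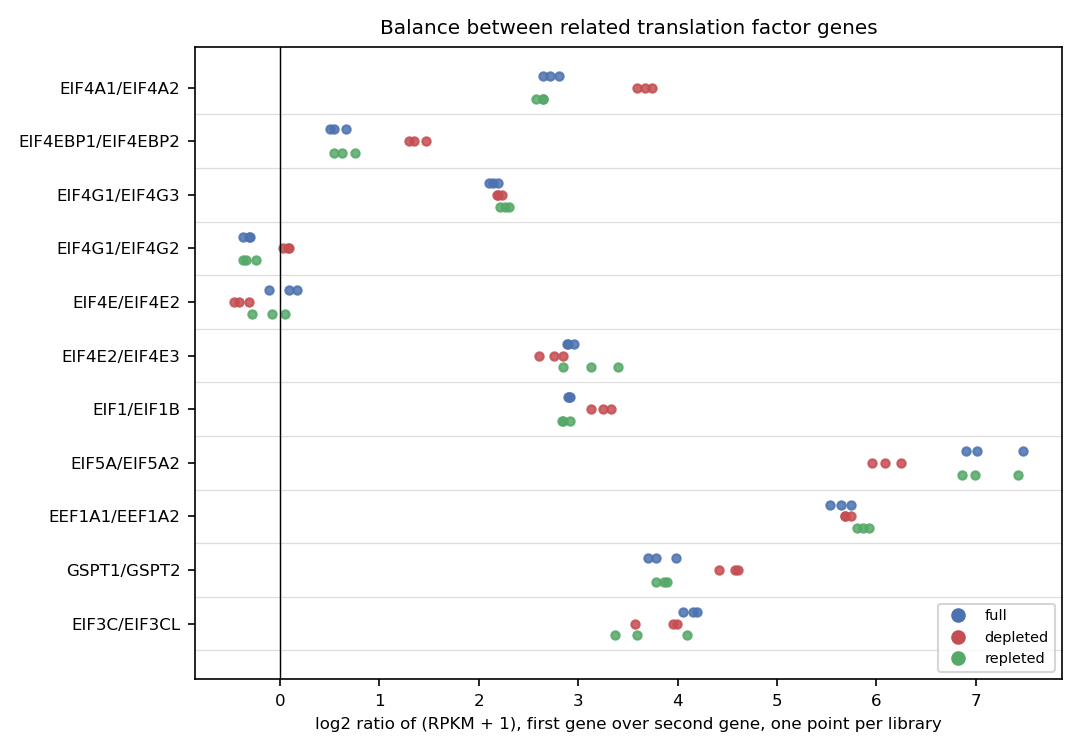
Log2 ratio of RPKM + 1 between related genes, with 1 point per library and groups by colour. For EIF4A1 over EIF4A2 the depleted libraries average 3.67 against 2.72 in full medium, while the groups overlap for EIF4G1 over EIF4G3 in depleted and full medium.

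In the medium repleted with Zn(II) no translation factor gene differed detectably from untreated cells. In repleted against full medium 0 of 59 passed limma, beside 5 genes (0.0317%) that passed among all genes tested, 0% higher and 0.0317% lower. An unadjusted limma p under 0.05 was found for 6 of the 59, beside 1224 (7.76%) of all genes tested. Log2 differences lay between -0.24 and 0.34. The largest fall was in EEF1A2 (log2 -0.24, limma adjusted p = 0.152), with 85.5, 87.0 and 91.4 RPKM in full and 75.4, 73.0 and 74.2 in repleted medium, which did not overlap. EIF3CL had the largest positive value (log2 0.34, 95% interval 0.02 to 0.67, limma adjusted p = 0.624). EIF2S2 had a log2 difference of -0.00 (95% interval -0.08 to 0.07) and EIF5 of -0.04 (-0.13 to 0.04). A p above the threshold does not show that levels were equal.

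Many mRNAs of the translation apparatus begin with a C followed by a run of pyrimidines, the TOP motif through which mTOR controls their translation. The bases around RefSeq starts (GRCh38.p14) were searched for a C followed by at least 4 further bases that are each C or T, beginning from 5 bases before to 5 bases after a start, on the gene's strand. Among the 51 genes matched in the promoter table, a listed start of 23 genes had such a run, or 45.1%, against 25.2% of the 27305 genes in it. The following 30-base stretches show such starts in genes that rose (EEF1B2, EEF2, EIF3D, EIF3F, EIF3K and EIF2S3), did not pass (EEF1A1) or fell (EIF4A2 and EIF4B), with the run in capitals. They lie, in that order, at chr2:206159885-206159914 (plus), chr19:3985444-3985473 (minus), chr22:36529147-36529176 (minus), chr11:7987327-7987356 (plus), chr19:38619178-38619207 (plus), chrX:24054946-24054975 (plus), chr6:73521013-73521042 (minus), chr3:186783567-186783596 (plus) and chr12:53006446-53006475 (plus).
EEF1B2: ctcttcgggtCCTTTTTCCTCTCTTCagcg
EEF2: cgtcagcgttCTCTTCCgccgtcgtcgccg
EIF3D: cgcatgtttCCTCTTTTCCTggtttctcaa
EIF3F: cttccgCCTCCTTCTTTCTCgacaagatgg
EIF3K: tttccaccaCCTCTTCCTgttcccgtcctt
EIF2S3: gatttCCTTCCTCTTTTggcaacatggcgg
EEF1A1: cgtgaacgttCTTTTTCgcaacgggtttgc
EIF4A2: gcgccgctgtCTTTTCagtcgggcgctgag
EIF4B: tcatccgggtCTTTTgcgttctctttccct

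Of the 22 tested genes with a pyrimidine run at a start, 13 rose, 7 fell and 2 did not pass in depleted against full medium, with a median log2 difference of 0.20. These counts include runs of 5 bases that began 5 bases before the listed start and so ended before it. Such runs were those of EIF5, EIF1, EIF5A2 and EIF3C, which rose (log2 0.91, 0.82, 0.72 and 0.18), and EEF2K, which fell (log2 -0.35). Of the 26 tested genes without it, 7 rose, 15 fell and 4 did not pass, with a median of -0.17. Over all genes tested 29.8% rose and 31.2% fell. Those genes were not divided by such a run, so whether the contrast is particular to translation factor genes was not tested. The search was written after the differences had been seen, so these counts describe the genes and carry no test. EIF4A2, with the run CTTTTC, fell by 1.01 on the log2 scale, so a run of this kind occurred in genes that moved either way. Among 9 genes known as TOP mRNAs 4 rose (EEF1B2, EEF1D, EEF2 and EIF3F), 2 fell (EEF1G and EIF4B) and 3 did not pass. The search found no such run for EEF1G, which is counted among the genes without it. EEF1D, EIF3E and EIF3H were not among the 51 genes matched and were not searched. The motif TGATGNAA, to which ATF4 and its partners bind, occurred on either strand from 250 bases before to 50 bases after a start in 1 of the 51 genes, EIF4E3, and in 4.46% of genes in the table. EIF4EBP1, given above as a target of ATF4, and EIF2S2 were not among the 51 and were not searched.

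**Figure D4:**
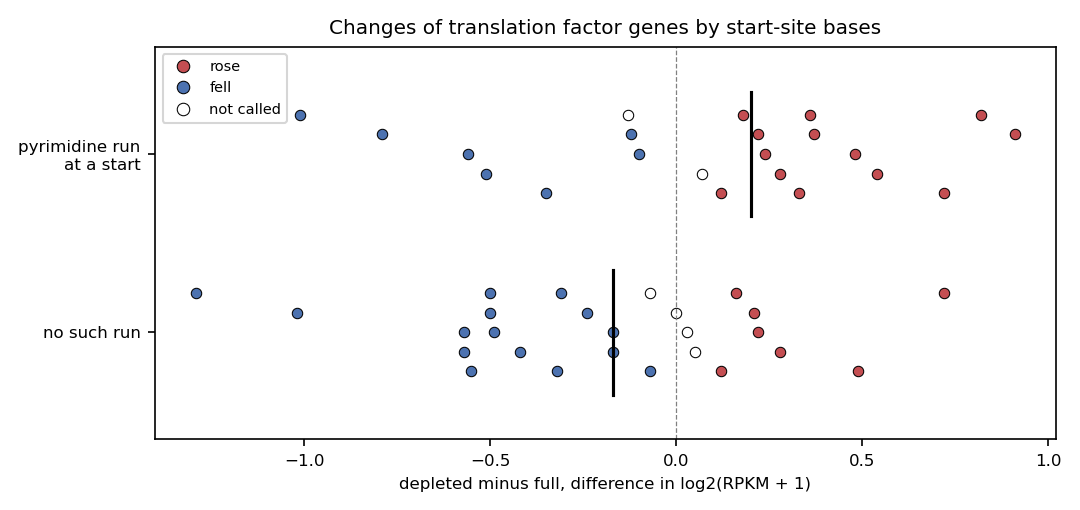
Difference in log2(RPKM + 1), depleted minus full, of genes with and without a pyrimidine run at a RefSeq start, with 1 point per gene and the group medians (0.20 and -0.17) as bars. The row with a run includes genes whose run ended before the start. Vertical spread within a row has no meaning, and both rows hold genes that rose and genes that fell.

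A further list, none of it among the 62 genes, held the eIF2 kinases, their phosphatase counterparts and the downstream transcription factors ATF4 and DDIT3. Of its 9 tested genes 7 rose, 1 fell and 1 did not pass, beside 29.8% higher and 31.2% lower among all genes tested. The 7 were the kinases EIF2AK1, EIF2AK2 and EIF2AK3, the phosphatase subunits PPP1R15A and PPP1R15B, and ATF4 and DDIT3, while IMPACT, an inhibitor of GCN2, fell (log2 -0.28, limma adjusted p = 0.0174). DDIT3, a stress transcription factor, rose from 5.12 to 27.0 RPKM (log2 2.20, limma adjusted p = 1.90e-07) and ATF4 from 223 to 319 (log2 0.51). The kinase EIF2AK2 (PKR), which senses viral RNA, rose from 25.4 to 49.8 RPKM (log2 0.94), and PPP1R15A, which directs a phosphatase to eIF2, from 23.3 to 42.7 (log2 0.84). EIF2AK4 (GCN2), the sensor of amino acid shortage, had 14.7 RPKM in full and 14.2 in depleted medium and did not pass.

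The enzymes that modify elongation factors held larger falls. Of 9 tested genes of hypusine and diphthamide synthesis 2 rose and 4 fell, beside 29.8% and 31.2% of all genes tested. All 4 that fell were in the pathway that makes diphthamide, a modified histidine found on eEF2. DPH1 fell from 33.7 to 7.92 RPKM (log2 -1.96, limma adjusted p = 7.83e-09), DPH5 from 34.0 to 11.6 (log2 -1.47), DPH6 from 8.16 to 3.06 (log2 -1.18) and DPH2 from 40.8 to 26.8 (log2 -0.59), while DPH3 rose slightly (log2 0.29). EEF2 itself rose, as given above. N6AMT1, which methylates eRF1 together with TRMT112, rose from 6.5 to 12.5 RPKM (log2 0.85, limma adjusted p = 2.71e-06), and TRMT112 had a log2 difference of -0.06 that did not pass.

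In the list of poly(A)-binding, recycling and regulatory genes 8 of 16 rose and 5 fell, beside 29.8% and 31.2% of all genes tested. PABPC4, a poly(A)-binding protein, fell from 195 to 119.7 RPKM (log2 -0.70, limma adjusted p = 3.34e-07) and MCTS1, a partner of DENR in recycling, from 52.4 to 30.5 (log2 -0.76). PDCD4, an inhibitor of eIF4A, rose from 124 to 199 RPKM (log2 0.68, limma adjusted p = 2.09e-06), and TPT1, a known TOP mRNA, from 789 to 1118 (log2 0.50).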

How the data were processed

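The authors deposited 1 table of log2 values, log2 of RPKM plus 1 per Ensembl gene, with 1 column for each of 9 libraries (per the file headers). Per the submitters' processing notes, the builds were hg19 and GRCh37 and the tools bedtools 2.25.0.3, BWA 0.7.12-r1039, Bowtie 1.0.1 and RSEM 1.2.6, with no role stated, and further scaling between libraries is not given in the sources used here. The table held 57766 genes and 20320 blank rows. It holds no counts. In genes of 100 to 500 nucleotides (effective length), 58.8% to 65.4% of low values were whole reads within 0.1 read at the best depth, so the depths are estimates and no interval was drawn from them.

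Genes reaching 1 RPKM in 3 or more libraries were fitted with limma 3.58.1 in R 4.3.3, with a variance trend and 1 mean per group over all 9 libraries, and p-values were adjusted over all genes tested. The fit was tested on simulated data. Group comparisons measure spread between the labelled biological triplicates. The members, role lists and tests were chosen with earlier results of these data known. Values in every library were given for EIF2S2, EIF5 and, per comparison, the 6 genes that rose most and the 6 that fell most. Of the lists of other genes, up to 4 with the smallest p each were named. Genes named or given per library outside these rules, the background at 10 RPKM, the ratios within complexes and the start-site and codon searches were chosen after values were seen. Same-numbered libraries of different groups had residual correlations of -0.014 to 0.073, so the numbers were not taken as pairs. Tried as alternatives were the replicate number as a block, a fit of the 6 compared libraries alone, no filter, a pseudocount of 0.1, median centring, quantile normalization, a threshold of 0.01 and each library left out. Sequences come from RefSeq (GRCh38.p14) and GENCODE 29 (GRCh38), a later build than that of the values, and were joined by symbol or gene identifier. Promoter entries matched 51 genes. Python 3.11.15 with matplotlib 3.10.9 drew the figures.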

Additional observations from a re-analysis of the deposited data

How the results depend on the processing

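Of the 48 calls in depleted against full medium 39 held in all 16 alternatives, and of the 45 against repleted medium 41 did. The 39 and the 41 include EIF2S3L, which passed the expression filter only through depleted libraries and carries no test. The number of called translation factor genes lay between 43 and 48 with each library left out in turn against full and between 44 and 46 against repleted medium, and it stayed at 0 for repleted against full medium under every alternative run. Over all genes tested, leaving out a library gave 8780 to 9723 and 8784 to 9512 calls in the depleted comparisons. Median centring ended 5 calls against full medium, all small falls, and left 25 higher and 18 lower. EEF1A1 turned to a fall after quantile normalization (log2 -0.18, limma adjusted p = 0.046), and the cause was not tested. The background count of repleted against full medium was small and moved most, from 5 genes to 3 with a pseudocount of 0.1, to 2 without the filter or with only the 6 libraries compared, to 1 at a threshold of 0.01, and between 1 and 9 with a library left out. With the replicate number as a block, 48, 45 and 0 translation factor genes were called in the 3 comparisons, and 2 of all genes in repleted against full medium. The block changed no call of a translation factor gene. Depth is known only as an estimate, which limits what the values of genes below 1 RPKM can show.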

Other observations

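Translation factors of mitochondria and further elongation factors were looked at beside the cytosolic ones. Of 12 tested mitochondrial factor genes 4 rose and 4 fell in depleted against full medium, with a median log2 difference of 0.04. Of all genes tested 60.9% passed, 29.8% higher and 31.2% lower. TSFM, the exchange factor of the mitochondrial elongation factor Tu, fell from 50.7 to 22.2 RPKM (log2 -1.15, limma adjusted p = 6.59e-07), and the ribosome rescue factor ICT1 from 41.3 to 15.5 (log2 -1.36). TUFM, the elongation factor that TSFM serves, had 249.7 RPKM in full and 261 in depleted medium and did not pass (log2 0.06). MTRF1, a release factor, rose from 5.98 to 13.4 RPKM (log2 1.04, limma adjusted p = 3.16e-06), and GUF1 from 18.0 to 28.1 (log2 0.61).

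Of 7 other elongation and rescue genes 4 rose and 2 fell, beside 29.8% and 31.2% of all genes tested. The largest change was in EEFSEC, the elongation factor that delivers the selenocysteine tRNA, with 27.4 ± 1.05 RPKM (SD, n = 3) in full, 1.79 ± 0.135 in depleted and 24.0 ± 0.416 in repleted medium. It was 15.3-fold lower in depleted than in full medium (log2 -3.35, SE 0.06, limma adjusted p = 1.12e-09), and depleted libraries did not overlap the others. GTPBP2, a relative of elongation factors, also fell (log2 -0.27, limma adjusted p = 0.0279). SBDS and EFTUD1, which together release EIF6 from new large subunits, rose from 58.2 to 82.8 RPKM (log2 0.50, limma adjusted p = 1.89e-06) and from 16 to 20.8 (log2 0.36), while EIF6 fell. HBS1L, a relative of eRF3 that acts on stalled ribosomes, rose from 68.9 to 86.6 RPKM (log2 0.33, limma adjusted p = 0.00277), while GSPT1 and GSPT2 fell. In repleted against full medium none of these genes passed.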
